A study of Mus musculus with 24 samples.

Results

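Adult mouse hepatocytes were profiled with 3 antibodies, against Foxa1, Foxa2 and Foxa3, by chromatin immunoprecipitation followed by sequencing (ChIP-seq). The hepatocytes came from the livers of 10-week-old C57BL/6 mice by collagenase digestion, and the labels give them no infection or transgene. All 3 libraries carry the same preparation number, 4, the same run code and the term EGS, which the labels do not spell out. How many mice went into the preparation is not given in the labels. The peak lists of these 3 libraries held 1501 of the 26332 peaks in the 14 lists of the series. The other 11 lists come from induced hepatocyte-like (iHep) cells, made from embryonic day 13.5 fibroblasts infected with Hnf4a and Foxa1 (line 4a1), Foxa2 (line 4a2) or Foxa3 (line 4a3). They are used here for reference, 9 of them with a Foxa antibody and 2 with an antibody against the Flag epitope tag.

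Foxa1, Foxa2 and Foxa3 are paralogous transcription factors that share a forkhead (winged helix) DNA-binding domain. They are known as pioneer factors: they can bind their sites in nucleosomal DNA, which helps other regulators to reach enhancers. In the liver, Foxa1 and Foxa2 act in the specification of the organ from endoderm, and all 3 proteins are made in adult hepatocytes. Because the DNA-binding domains are so alike, 3 antibodies in 1 preparation ask how far the deposited lists name the same places.

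The 3 lists differed in length, in where their peaks ranked and in how they clustered, and outside 4 short stretches of the genome they had few sites in common. Each antibody gave 1 list, so no difference between antibodies has a replicate check and no test was made. A range in brackets after a share is its 95% interval by the exact Clopper-Pearson method, and after a median a 95% interval from ordered values. Both treat peaks as independent, cover nothing but counting error, and come out too narrow where peaks lie close together. Without read counts in the files the sequencing depth is unknown, and a list's length is not a depth. The identity of the cells could not be checked against marker genes, because no gene annotation of the files' build (mm9) was used here. For the same reason regions are given by position and no gene is assigned to them.

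The Foxa3 list was the longest, with 1091 peaks over 196 kb of the genome. The Foxa2 list held 244 peaks over 33.7 kb, and the Foxa1 list 166 peaks over 45.1 kb. Foxa3 thus gave 6.57 times as many peaks as Foxa1 and 4.47 times as many as Foxa2. The order of Foxa1 and Foxa2 depended on the measure: Foxa2 had 1.47 times the peaks of Foxa1 but 0.747 times its covered length.

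Peaks were widest in the Foxa1 list. The Foxa1 median was 196.5 bp, with quartiles at 128.5 and 324.5 bp. The Foxa2 median was 121.5 bp, with quartiles at 105.75 and 150.0 bp, and the Foxa3 median 137 bp, with quartiles at 110.0 and 191 bp. The narrowest peaks were alike, at 107 (Foxa1), 99 (Foxa2) and 101 bp (Foxa3). Peaks of 500 bp or more numbered 15 of 166 for Foxa1 (9.04%), 1 of 244 for Foxa2 (0.410%) and 28 of 1091 for Foxa3 (2.57%). The 4 blocks described next held 12 of these wide Foxa1 peaks and 0 of the wide Foxa3 peaks. Outside the blocks, wide peaks made up 3.80% of Foxa1, 0% of Foxa2 and 2.84% of Foxa3 peaks. The widest Foxa1 peak spanned 2166 bp on chromosome 17 (39981105 to 39983270). The widest Foxa3 peak spanned 2148 bp on chromosome 2 (172979812 to 172981959), at the 97.5th percentile of its list by score. The widest Foxa2 peak spanned 555 bp on chromosome 11 (3090014 to 3090568).

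Much of the Foxa1 list lay in 4 blocks. These are stretches where hepatocyte peaks sit close together. The longest is on chromosome 11 (3041272 to 3100001) and the next on chromosome 9 (3000010 to 3038304). A shorter one lies on chromosome 10 (7229710 to 7237012) and the shortest on chromosome 17 (39980018 to 39985706). The blocks were picked out earlier from these same lists, so the counts in them are descriptions, and leaving them out lowers overlap and clustering in part by construction. The blocks held 87 of the 166 Foxa1 peaks, 73 of the 244 Foxa2 peaks and 106 of the 1091 Foxa3 peaks. Outside them remained 985 Foxa3 peaks over 178 kb, 171 Foxa2 peaks over 22.1 kb and 79 Foxa1 peaks over 14.6 kb. Foxa3 then had 12.5 times as many peaks as Foxa1 and 5.76 times as many as Foxa2, and the covered length of Foxa2 was 1.51 times that of Foxa1.

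Leaving out the blocks also lowered the median width of the Foxa1 list, from 196.5 to 131 bp. Its median was 289 bp (234 to 343) for block peaks and 131 bp (118 to 144) for peaks elsewhere. The Foxa2 medians were 135 bp (122 to 155) in the blocks and 115 bp (110 to 124) elsewhere. The Foxa3 medians were 153.5 bp (138 to 170) in the blocks and 135 bp (130 to 141) elsewhere. Outside the blocks the median intervals of the Foxa1 and Foxa3 lists overlapped, and those of the Foxa1 and Foxa2 lists also overlapped. Those of the Foxa2 and Foxa3 lists did not. No antibody has a replicate list, so this describes peaks and is no test between antibodies.

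**Figure D1:**
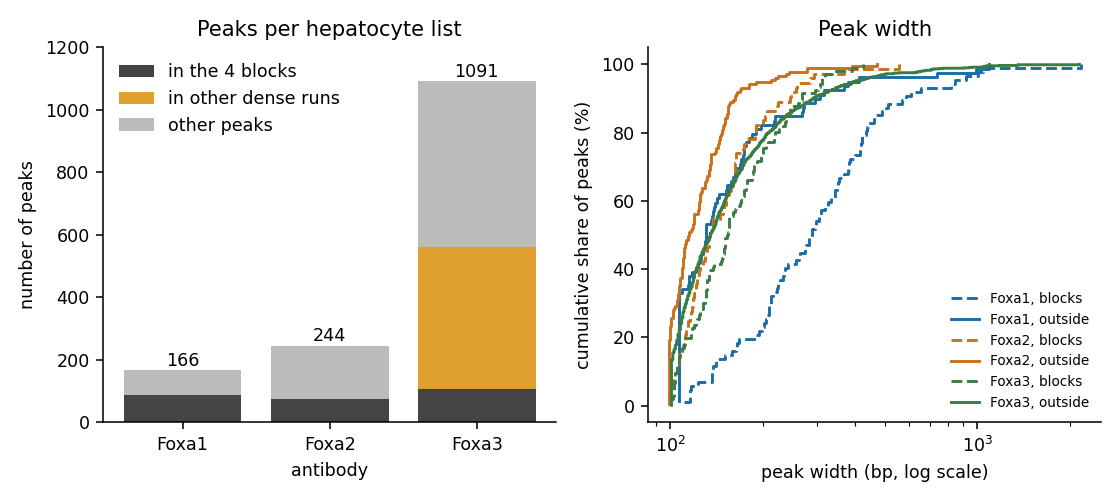
Left, number of peaks in each hepatocyte list, split into peaks in the 4 blocks, peaks in other dense runs (at least 5 peaks with gaps of at most 5 kb) and other peaks. Right, cumulative share of peaks by width in bp on a log scale, dashed for block peaks and solid for peaks outside. The Foxa1 block peaks stand to the right, with a median of 289 bp against 131 bp for Foxa1 peaks outside.

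The antibodies did not fill the 4 blocks in the same way. On chromosome 9 the Foxa1 list held 75 peaks, which covered 68.3% of the 38.3 kb, with a median gap of 111 bp between neighbours. The Foxa2 list held 34 peaks there (13.4% of the block) and the Foxa3 list 36 peaks (16.2%). All 34 Foxa2 and all 36 Foxa3 peaks overlapped a Foxa1 peak, in a block that Foxa1 peaks cover for the most part. Of the 75 Foxa1 peaks, 33 overlapped a Foxa2 peak and 34 a Foxa3 peak.

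The block on chromosome 11 showed the opposite order. It held 48 Foxa3 peaks, 23 Foxa2 peaks and 0 of the 166 Foxa1 peaks (upper limit 1.81% for counting error alone). Of the 23 Foxa2 peaks, 18 overlapped a Foxa3 peak, although Foxa3 peaks covered 12.9% of the 58.7 kb. The block on chromosome 10 held 14 Foxa3, 11 Foxa2 and 8 Foxa1 peaks in 7.30 kb. There all 11 Foxa2 peaks and all 8 Foxa1 peaks overlapped a Foxa3 peak, in a block where Foxa3 peaks covered 43.2%. The block on chromosome 17 held 8 Foxa3, 5 Foxa2 and 4 Foxa1 peaks in 5.69 kb, and the 4 Foxa1 peaks covered 51.4% of it.

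Counted in bases, the block positions common to all 3 lists are limited by the list that covers least. They came to 3.795 kb of the block on chromosome 9, 0.667 kb on chromosome 10 and 0.275 kb on chromosome 17, with none on chromosome 11. The list with least cover held 5.13 kb on chromosome 9 (Foxa2), 1.40 kb on chromosome 10 (Foxa1) and 0.636 kb on chromosome 17 (Foxa2). On chromosome 11 the Foxa1 list covered 0 kb. Positions in at least 1 list came to 26.2, 3.44 and 3.55 kb on chromosomes 9, 10 and 17, and to 9.27 kb on chromosome 11. On chromosome 9 the Foxa1 list alone covered all 26.2 kb.

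Peaks in these blocks, which are bounded by hepatocyte peaks alone, were few in most other lists of the series. The iHep list with most of them was the Foxa1 EGS list of line 4a1, culture 2, with 92 of its 542 peaks in the blocks, 79 of them on chromosome 9. The other 10 iHep lists held between 0 and 10 block peaks each, and 0 on chromosome 9. This was 0% to 4.76% of lists of 21 to 11408 peaks. On chromosome 17 the Foxa1 EGS list of line 4a1, culture 2, held 12 peaks. The Foxa2 EGS list of line 4a2, culture 2, held 9 there. The hepatocyte lists held 4 (Foxa1), 5 (Foxa2) and 8 (Foxa3) in that block.

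**Figure D2:**
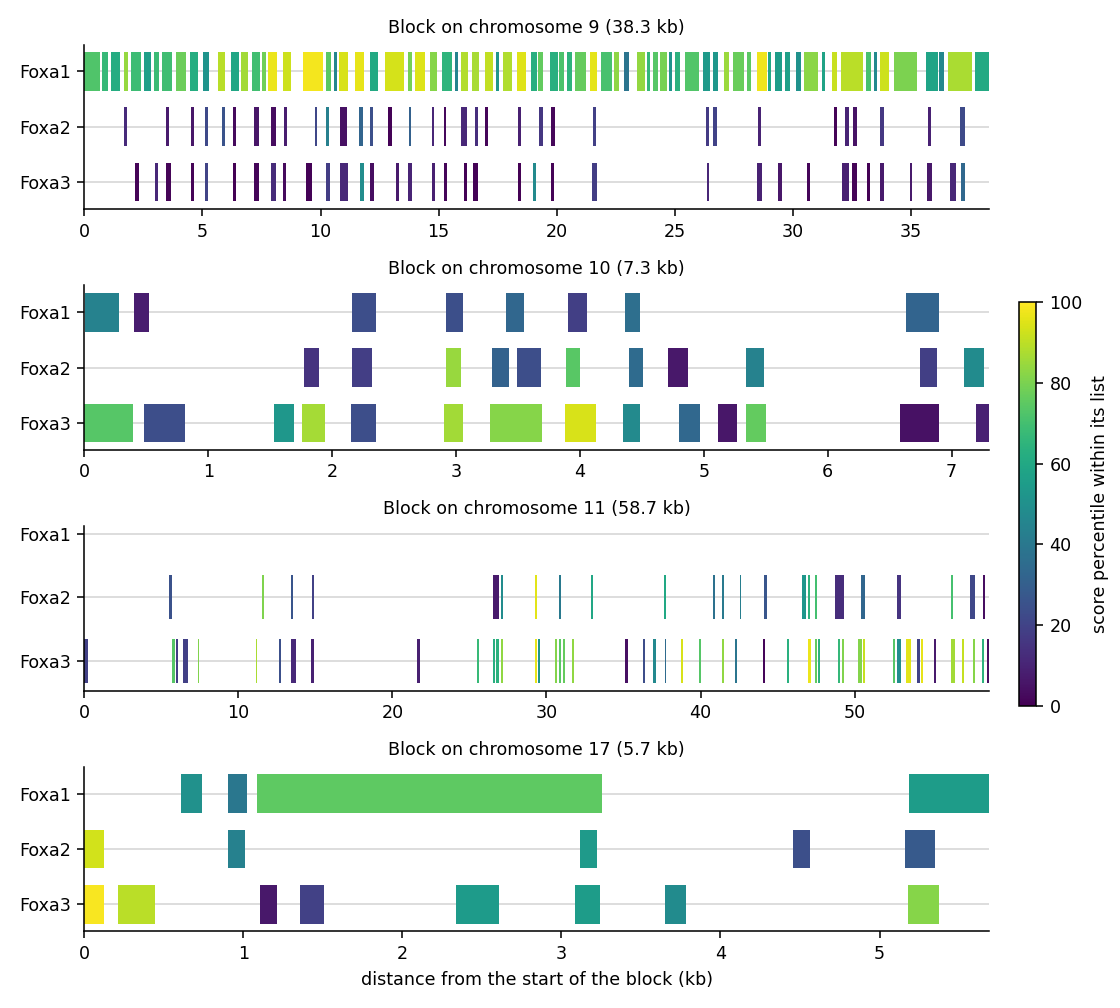
Peaks of the 3 hepatocyte lists in the 4 blocks, by distance from the start of the block in kb. Each bar is 1 peak drawn to scale and coloured by its score percentile within its own list. On chromosome 9 the Foxa1 row is nearly filled with high-ranking peaks and the Foxa2 and Foxa3 rows hold low-ranking ones, and on chromosome 11 the Foxa1 row is empty.

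Rank within a list followed the blocks in opposite ways for the antibodies. Rank is given as the percentile of the authors' score among all peaks of the same list, with ties averaged. Scores were not compared between lists. Foxa1 block peaks ranked high, with a median percentile of 69.9 (62.7 to 75.9), against 26.5 (19.6 to 32.5) for Foxa1 peaks outside. Foxa2 block peaks ranked low, with a median of 21.7 (15.98 to 26.6), against 61.1 (55.7 to 67.4) outside. Foxa3 block peaks had a median of 28.9 (17.8 to 52.7), against 50.6 (47.9 to 53.5) outside. Tied scores were frequent in the Foxa3 list, where 1091 peaks carried 248 distinct scores.

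The low Foxa3 median came mainly from 1 block. On chromosome 9 the 36 Foxa3 peaks had a median percentile of 6.55 and none ranked above 48.7. On chromosome 11 the 48 Foxa3 peaks had a median of 66.9 and reached 97.2. The Foxa2 peaks showed the same order, with a median of 10.2 on chromosome 9 and of 40.6 on chromosome 11. The Foxa1 peaks on chromosome 9 had a median of 72.9 and none ranked below 38.6.

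At the top of the lists, 16 of the 20 highest-scoring Foxa1 peaks lay in the blocks, against 2 of 20 for Foxa2 and 1 of 20 for Foxa3. Of the same 20 peaks, 17 overlapped another list for Foxa1, 3 for Foxa2 and 2 for Foxa3. Dense runs held 13 of the 20 highest Foxa3 peaks, at most 1 of which lay in a block. They held 5 of the highest 10, 28 of the highest 50 and 559 of all 1091 Foxa3 peaks (51.2%). Outside the blocks, Foxa3 peaks in runs and those in no run had the same median percentile, 50.6.

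**Figure D3:**
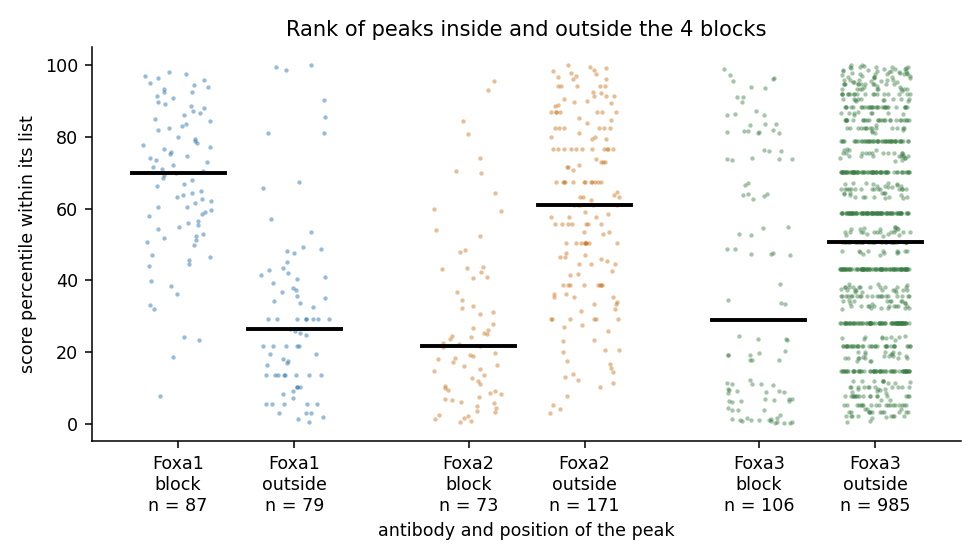
Score percentile of each peak within its own list, for peaks in the 4 blocks and outside them. Points are peaks, spread sideways for legibility, and black lines are medians. The line is higher for block peaks in the Foxa1 list (69.9 against 26.5) and lower for block peaks in the Foxa2 list (21.7 against 61.1) and the Foxa3 list (28.9 against 50.6).

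Dense clusters of Foxa1 and Foxa2 peaks lay in the blocks, while the longer Foxa3 list also held dense clusters on many chromosomes outside them. A dense run was taken as at least 5 peaks of 1 list with gaps of at most 5 kb. In the Foxa3 list 51 runs held 559 of 1091 peaks (51.2%, 48.2 to 54.2). In the Foxa2 list 4 runs held 69 of 244 peaks (28.3%, 22.7 to 34.4), and in the Foxa1 list 2 runs held 83 of 166. Without the blocks, 454 of 985 Foxa3 peaks (46.1%, 42.9 to 49.3) still lay in 46 runs on 17 chromosomes. No Foxa1 and no Foxa2 peak did, with exact intervals up to 4.56% for 79 and 2.13% for 171 peaks. Without the requirement of 5 peaks, the Foxa3 list had 35 stretches of 3 or 4 peaks outside the blocks, against 2 in the Foxa1 list and 1 in the Foxa2 list. These shorter stretches were counted after the values were seen.

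The spacing of neighbours showed the same contrast without a run threshold. Outside the blocks, the median distance from a peak to the nearest peak of its own list was 0.601 kb for Foxa3, 5604 kb for Foxa1 and 3870 kb for Foxa2. Of the Foxa3 peaks 75.4% (72.6 to 78.1) had a neighbour within 10 kb, against 13.9% (7.16 to 23.5) for Foxa1 and 5.26% (2.43 to 9.76) for Foxa2. Longer lists have closer neighbours by number alone. When each list was limited to its 79 highest-scoring peaks outside the blocks, dense runs held 6 Foxa3 peaks (7.59%, 2.84 to 15.8), all in 1 run, against 0 Foxa1 and 0 Foxa2 peaks, each with an interval up to 4.56%. At equal list length these intervals for dense runs overlap. A neighbour within 10 kb was then found for 36 Foxa3 peaks (45.6%, 34.3 to 57.2), against 11 Foxa1 peaks (13.9%, 7.16 to 23.5) and 2 Foxa2 peaks (2.53%, 0.308 to 8.85). Limiting the lists in this way was chosen after the values were seen.

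The Foxa3 runs outside the blocks spanned 1.72 to 22.7 kb and held 5 to 38 peaks, with a median of 7. The longest run held 38 peaks on chromosome 4 (150226804 to 150249468), with a median percentile of 78.8 and a widest peak of 1357 bp. It was followed by a run of 29 peaks on chromosome 14 (41917905 to 41940119) and one of 26 on chromosome 5 (90890065 to 90906699). The next held 23 peaks on chromosome 4 (49547681 to 49562222) and 16 peaks on chromosome 12 (8008898 to 8026106). The run on chromosome 5 had the broadest peaks of these, with a median width of 380.5 bp. None of the 5 held a Foxa1 or Foxa2 peak of hepatocytes. Among them, only the run of 38 peaks also held a peak of line 4a3, in 2 of its lists. Over all 46 runs, 2 held a Foxa2 peak and 0 a Foxa1 peak (upper limit 6.52% for counting error alone). Of the 46, 26 also held a peak of an iHep Foxa3 list of line 4a3, against 2 for lists of line 4a1 and 4 for lists of line 4a2. A run was matched as 1 span with its gaps, so it can meet another list more easily than a single peak. Of the 985 single Foxa3 peaks outside the blocks, 278 (28.2%) were in line 4a3, 18 (1.83%) in line 4a1 and 31 (3.15%) in line 4a2.

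**Figure D4:**
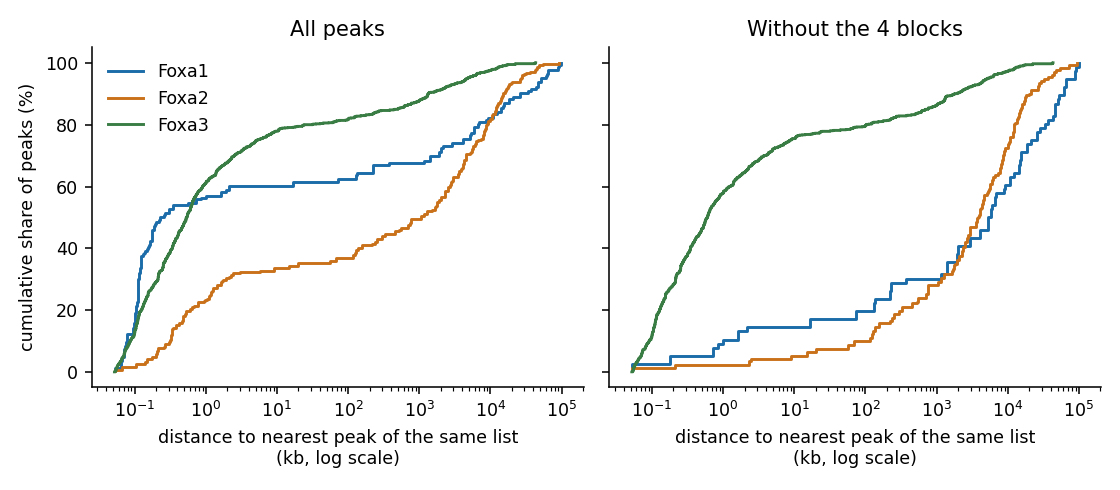
Cumulative share of peaks by distance to the nearest peak of the same list, in kb on a log scale, for all peaks (left) and without the 4 blocks (right). Without the blocks the Foxa1 and Foxa2 curves move far to the right (medians 5604 and 3870 kb) and the Foxa3 curve keeps a median of 0.601 kb.

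Overlap between antibodies was low and lay mostly in the blocks. A single common base, 1 bp, was enough to call a peak shared, and each overlap is given as a share of both lists. Between Foxa3 and Foxa1, 57 of 1091 Foxa3 peaks (5.22%) and 52 of 166 Foxa1 peaks (31.3%) were shared. Without the blocks it was 8 of 985 (0.812%, 0.351 to 1.59) and 8 of 79 (10.1%, 4.47 to 19.0). Between Foxa3 and Foxa2, 74 of 1091 Foxa3 peaks (6.78%) and 72 of 244 Foxa2 peaks (29.5%) were shared. Without the blocks it was 14 of 985 (1.42%, 0.779 to 2.37) and 14 of 171 (8.19%, 4.55 to 13.4). Between Foxa2 and Foxa1, 49 of 244 Foxa2 peaks (20.1%) and 47 of 166 Foxa1 peaks (28.3%) were shared, and without the blocks 5 of 171 (2.92%, 0.956 to 6.69) and 5 of 79 (6.33%, 2.09 to 14.2).

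Block peaks alone overlapped far more often. Of the 73 Foxa2 block peaks, 79.5% (68.4 to 88.0) overlapped a Foxa3 peak and 60.3% (48.1 to 71.5) a Foxa1 peak. Of the 87 Foxa1 block peaks, 50.6% (39.6 to 61.5) overlapped a Foxa3 peak. On the Jaccard index (shared bases over bases in either list), Foxa2 and Foxa3 reached 0.370 in the blocks and 0.0101 outside. For Foxa1 and Foxa3 the index was 0.208 in the blocks and 0.00725 outside, and for Foxa1 and Foxa2 it was 0.173 and 0.0161.

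**Figure D5:**
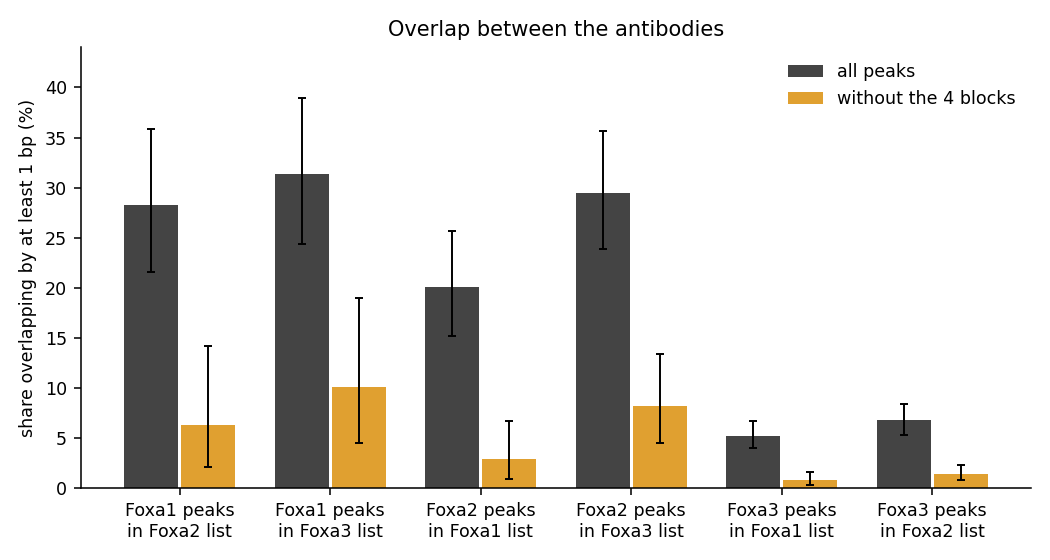
Share of each hepatocyte list that overlapped another list by at least 1 bp, for all peaks and without the 4 blocks. Bars are shares and lines are exact 95% intervals over peaks. Every share was lower without the blocks, and the highest fell to 10.1%, for Foxa1 peaks in the Foxa3 list.

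Peaks that were not shared mostly had no near neighbour in another list either. Outside the blocks, widening the limit from an overlap to 10 kb raised the share of Foxa2 peaks with a Foxa3 peak nearby to 14.6% (25 of 171), and 100 kb raised it to 23.4% (40 of 171). For Foxa1 peaks with a Foxa3 peak the shares were 15.2% (12 of 79) and 19.0% (15 of 79). For Foxa1 peaks with a Foxa2 peak they were 7.59% (6 of 79) and 10.1% (8 of 79).

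With the blocks included, shared peaks ranked high in the Foxa1 list and low in the other lists. Their median percentile was 69.0 in the Foxa1 list (60 peaks), 21.5 in the Foxa2 list (82 peaks) and 33.4 in the Foxa3 list (93 peaks), against 38.3, 62.7 and 50.6 for the unshared peaks of the same lists. By tertiles of score in the Foxa2 list, 12.2% (6.01 to 21.3) of the highest tertile and 69.1% (57.9 to 78.9) of the lowest overlapped another list. For Foxa1 the order was reversed, with 58.9% (44.98 to 71.9) in the highest tertile and 16.4% (7.77 to 28.8) in the lowest. The blocks held 62.96% of the lowest Foxa2 tertile and 85.7% of the highest Foxa1 tertile. Without them the shares were 3.51% (0.428 to 12.1) and 17.5% (8.75 to 29.9) for the highest and lowest Foxa2 tertiles, and 22.2% (8.62 to 42.3) and 7.69% (0.946 to 25.1) for Foxa1. For Foxa3 the highest and lowest tertiles gave 7.97% and 12.7% with the blocks, and 2.74% (1.26 to 5.13) and 1.52% (0.497 to 3.52) without them. The intervals without the blocks overlap within each list. The order of shared and unshared Foxa3 peaks also turned without the blocks, with a median percentile of 64.0 (33.8 to 92.9) for 18 shared peaks and 50.6 (47.6 to 53.5) for 967 unshared ones. In the Foxa1 and Foxa2 lists it did not turn, with medians of 47.6 and 41.8 for shared peaks and of 25.3 and 63.1 for unshared ones.

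Merged across the lists, the peaks outside the blocks formed 1212 regions, of which 967 were Foxa3 only, 70 Foxa1 only and most of the others Foxa2 only. A further 19 regions (1.57%) held at least 2 antibodies. Of these, 10 were shared by Foxa2 and Foxa3, 4 by Foxa1 and Foxa3, 1 by Foxa1 and Foxa2, and 4 by all 3. With the blocks, 93 of 1359 regions (6.84%) held at least 2 antibodies and 39 all 3.

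The 4 regions of all 3 antibodies ranked in the lower part of most lists. The region on chromosome X (73844192 to 73844459) had percentiles of 42.8, 41.8 and 52.8 in the Foxa1, Foxa2 and Foxa3 lists. That on chromosome 17 (13745643 to 13745939) had 48.2, 2.87 and 19.4. That on chromosome 11 (3000365 to 3000545) had 1.20, 15.6 and 0.642, and lay 40.7 kb from the block on that chromosome. That on chromosome 12 (68160325 to 68160622) had 9.04, 4.10 and 0.367. The first and second were also in the Foxa1 EGS list of line 4a1, culture 2, and the other two were in no iHep list.

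A few pairs were shared at the top of both lists. The 1 region of Foxa1 and Foxa2 lay on chromosome 16 (57391609 to 57391747), at percentiles of 98.8 and 98.4. It was also found in both Flag lists and in 2 iHep Foxa lists. The leading region of Foxa1 and Foxa3 lay on chromosome 9 (56071494 to 56071646), at 99.4 and 98.1. It was in 0 iHep Foxa lists and 1 Flag list. The other 3 of this pair lay on chromosome 11 (108873061 to 108873328), at 47.6 and 83.4, on chromosome X (123302513 to 123302675), at 25.3 and 54.5, and on chromosome 2 (98503859 to 98504226), at 67.5 and 9.44.

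For Foxa2 and Foxa3 the 5 leading regions spanned 125 to 443 bp. The first lay on chromosome X (166527248 to 166527497), at percentiles of 89.8 and 98.7, and the second on chromosome 18 (90771579 to 90772021), at 72.1 and 97.1. The next were on chromosome 2 (181747498 to 181747887), at 41.4 and 95.5, chromosome 5 (152537116 to 152537240), at 45.5 and 81.3, and chromosome 8 (129113481 to 129113721), at 72.95 and 50.6. Each of these 5 was also in 2 to 5 iHep Foxa lists. Of all 19 regions, 13 were in at least 1 iHep Foxa list (68.4%, 43.4 to 87.4). A Flag list held 7, and the Foxa1 EGS list of line 4a1, culture 2, also 7 (36.8%, 16.3 to 61.6, for each). Among regions of Foxa1, Foxa2 or Foxa3 alone, 17.1%, 49.4% and 29.6% were in an iHep Foxa list. In the same order, 11.4%, 12.2% and 1.03% were in a Flag list, and 14.3%, 8.97% and 0% (0 to 0.381) in the culture 2 list. Leaving out regions of the Flag lists or of that culture 2 list left 7 of the 19.

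The highest-ranking regions outside the blocks were otherwise different for each antibody. For Foxa1 the first was on chromosome 16 (11144120 to 11144261), at the top of the list and also in both Flag lists. After the shared regions on chromosomes 9 and 16 came a pair on chromosome 2 (98502395 to 98503133 and 98506396 to 98507483), 739 and 1088 bp wide, at percentiles of 90.4 and 85.5. They belong to a stretch of 4 Foxa1 peaks (98502395 to 98507483), and all 4 were in the Foxa1 EGS list of line 4a1, culture 2.

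For Foxa2 the first region was on chromosome 10 (86308088 to 86308558), 471 bp wide and found in 8 of the 9 iHep Foxa lists and both Flag lists. Those on chromosome 1 (167390848 to 167391001) and chromosome 11 (38494741 to 38494870) were in no iHep list, and that on chromosome 18 (34918779 to 34918890) was in 2 lists of line 4a2. The fifth was the region on chromosome 16 shared with Foxa1. For Foxa3, 4 of the 5 lay on chromosome 11. A group of 3 lay within 20 kb of each other (87256537 to 87256688, 87261949 to 87262078 and 87275610 to 87275734), and the fourth farther on (101519374 to 101519520). The fifth lay on chromosome 12 (55839658 to 55839777). All 5 were in 2 or 3 lists of line 4a3 and in no list of lines 4a1 or 4a2.

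The lists also differed in the chromosomes they named. Outside the blocks, chromosome X held 18 of 79 Foxa1 peaks (22.8%, 14.1 to 33.6), 4 of 171 Foxa2 peaks (2.34%, 0.641 to 5.88) and 10 of 985 Foxa3 peaks (1.02%, 0.488 to 1.86). Chromosome X was singled out after the values were seen. The Foxa1 peaks on it were spread from 3182611 to 145145899, with 4 of 18 within 100 kb of another, and ranked at a median percentile of 27.3. Of the 18, 2 overlapped another hepatocyte list and 2 the Foxa1 EGS list of line 4a1, culture 2.

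The hepatocyte lists were set beside the iHep line that carried the matching factor and antibody, which cannot be told apart there. Outside the blocks, regions found with Foxa3 alone were in line 4a3 in 273 of 967 cases (28.2%, 25.4 to 31.2), in line 4a2 in 21 (2.17%) and in line 4a1 in 7 (0.724%). Regions found with Foxa2 alone were in line 4a2 in 71 cases (45.5%, 37.5 to 53.7) and in line 4a1 in 49 (31.4%, 24.2 to 39.3). They were in line 4a3 in 27 (17.3%, 11.7 to 24.2). Line 4a2 includes a non-EGS list of 11408 peaks, which held 38.6% of Foxa2 peaks outside the blocks. The EGS lists of line 4a2 (957 and 1040 peaks) held 23.4% and 24.6%. In line 4a1 the lists of 940, 542 and 3431 peaks held 28.7%, 11.1% and 17.5%. Over all Foxa2 peaks, blocks included, 40.2% were in line 4a1 and 34.8% in line 4a2. Regions found with Foxa1 alone were in line 4a1 in 10 of 70 cases (14.3%, 7.07 to 24.7), in line 4a2 in 3 and in line 4a3 in 1. All 10 of those in line 4a1 were in the EGS list of culture 2. Among the 79 Foxa1 peaks outside the blocks, 12 (15.2%) were in the Flag list of line 4a3, 4 (5.06%) in the 21-peak Flag list of line 4a2 and 4 in any Foxa3 list of line 4a3. Over all peaks, without the Foxa1 EGS list of line 4a1, culture 2, the share of Foxa1 peaks in line 4a1 was 1.81%, against 52.4% with it. Without the non-EGS list of their line, the shares over all peaks were 22.5% against 34.8% for Foxa2 in line 4a2 and 13.9% against 25.8% for Foxa3 in line 4a3. In the other direction, 4.29% of the 4915 regions of line 4a3 held a hepatocyte Foxa3 peak outside the blocks, 0.685% of the 11677 of line 4a2 a Foxa2 peak, and 0.403% of the 3969 of line 4a1 a Foxa1 peak.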

How the data were processed

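The submitters' processing notes name BWA (0.6.2), MACS2 (2.1.0), bedtools (2.16.2) and mm9 as genome build. What each tool did, its settings, the calling threshold and any use of the input library are not stated there. Each deposited file belongs to 1 library and gives, per peak, a chromosome, start, end, name and score. The deposited score is the authors' own value, of unknown scale, and served only to rank peaks within a list. Positions are those of the files, with starts written 1-based.

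Comparisons ran in Python 3.11.15 with scipy 1.17.1, pandas 2.3.3 and numpy 2.4.6, and the overlap and run functions were tested on simulated lists. Each block runs from the first to the last hepatocyte peak in its stretch, and any peak touching it was assigned to it. Upper limits for a count of 0, where no exact interval is given, are 3 counts of the total. Named regions outside the blocks were the 5 highest-ranked per list, all regions of 3 antibodies, the 5 leading regions per pair and the 5 largest runs per list. The planned gene lists, sequences and Foxa proteins were not analysed here. The lists, blocks and rules were chosen with earlier results of these data known.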

Additional observations from a re-analysis of the deposited data

How the results depend on the processing

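Of 121 recomputed values, 32 stayed within the interval of the main value (or within 1.5 times a count) and 89 moved further. Requiring an overlap of 50% of the narrower peak moved none of 9 values. No paired analysis was possible because each antibody has 1 hepatocyte list. Unless given otherwise, the cause of a shift was not tested. Intervals and list lengths are limited by a depth that is unknown.

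Without the 4 blocks, the Foxa1 list had 79 peaks over 14.6 kb and a median width of 131 bp, and the Foxa2 list covered 22.1 kb with a median of 115 bp. Shares in dense runs became 0% for Foxa1 and Foxa2 and 46.1% for Foxa3. Median percentiles of shared peaks became 47.6, 41.8 and 64.0 for Foxa1, Foxa2 and Foxa3. For Foxa3 the shared median turned from below to above the unshared one (33.4 with the blocks, against 50.6 for unshared peaks either way). Without the blocks the intervals of shared and unshared peaks overlap in each list. Shares overlapping another list in the highest and lowest tertiles became 22.2% and 7.69% (Foxa1), 3.51% and 17.5% (Foxa2), and 2.74% and 1.52% (Foxa3, 7.97% and 12.7% with the blocks). Overlaps became 10.1% (Foxa1 in Foxa3), 6.33% (Foxa1 in Foxa2), 8.19% (Foxa2 in Foxa3), 2.92% (Foxa2 in Foxa1), 0.812% (Foxa3 in Foxa1) and 1.42% (Foxa3 in Foxa2). Shares within 10 kb, in the same order of pairs, became 15.2%, 7.59%, 14.6%, 3.51%, 0.812% and 4.37%, against 59.6%, 56.0%, 40.2%, 23.0%, 6.05% and 13.7% with the blocks. Jaccard indices became 0.00725 (Foxa1 and Foxa3), 0.0161 (Foxa1 and Foxa2) and 0.0101 (Foxa2 and Foxa3), against 0.0422, 0.0940 and 0.0457. Regions of all 3 antibodies became 4. The share of Foxa1 peaks in line 4a1 became 19.0%, and of Foxa2 peaks in line 4a2 46.8%.

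With the top-scoring 50% of each list, which shortens the lists by construction, 83 Foxa1, 122 Foxa2 and 545 Foxa3 peaks remained. Median widths were 316 bp for Foxa1 and 116.5 bp for Foxa2. Dense runs held 84.3%, 0% and 37.2% of Foxa1, Foxa2 and Foxa3 peaks. Overlaps, in the order of pairs above, were 3.61%, 2.41%, 8.20%, 1.64%, 0.734% and 1.83%, and 1 region was in all 3. With 166 top-scoring peaks per list, dense runs held 10.2% for Foxa2 and 17.5% for Foxa3, and overlaps were 1.81% (Foxa1 and Foxa3, both ways), 5.42% (Foxa1 and Foxa2, both ways) and 6.02% (Foxa2 in Foxa3), with 2 regions in all 3.

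With peaks within 1 kb merged, Foxa1 had 80 and Foxa3 590 peaks. Runs held 0%, 11.9% and 9.49% of Foxa1, Foxa2 and Foxa3 peaks. Overlaps were 17.5%, 12.5%, 21.3%, 9.90% and 3.56% for the first 5 pairs, and 9 regions were in all 3. Without peaks in dense runs, overlaps were 9.64%, 6.02%, 7.43%, 2.86%, 1.504% and 2.44%, and 4 regions were in all 3. With gaps of at most 1 kb, runs held 11.9% of Foxa2 and 32.1% of Foxa3 peaks. For Foxa3 they held 59.1% with gaps of 20 kb, 62.6% with runs of at least 3 peaks and 32.1% with at least 10.

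With EGS libraries alone, 22.5% of Foxa2 peaks were in line 4a2 and 13.9% of Foxa3 peaks in line 4a3. These settings were chosen after seeing the data: leaving out 1 iHep list at a time gave 1.81% to 52.4% for Foxa1 in line 4a1, 22.5% to 33.6% for Foxa2 in line 4a2 and 13.9% to 25.8% for Foxa3 in line 4a3. The shares within 10 kb without the blocks and the 7 of 19 regions left without the Flag lists and the culture 2 list were also added then, as was the limit to 79 top-scoring peaks per list without the blocks, under which dense runs held 0% of Foxa2 and 7.59% of Foxa3 peaks.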
